A study of Mus musculus with 7 samples.

Results

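The genes described here move glucose into a muscle cell, trap it there and store it. They are 4 glucose transporters (Slc2a1, Slc2a3, Slc2a4 and Slc2a8), the hexokinases Hk1 and Hk2, the arrestin-domain protein gene Txnip, and the glycogen enzyme genes Gys1 and Pygm. They were chosen by name, and every array probe that carries one of these names was kept, which gave 12 probes on 9 genes out of 39429 probes on 31829 gene names. Slc2a4 was measured by 1 probe printed 10 times on each array, Hk1, Txnip and Gys1 by 2 different probes each, and the other genes by 1 probe printed once.

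The cells were C2C12, a line of mouse muscle cells that grow as myoblasts and fuse into myotubes when serum is lowered, and they received exosomes from other C2C12 cultures for 24 h. In the EXO-Post BSA group (4 arrays) the donor cells had been given BSA, the carrier of the fatty acid, and in the EXO-Post Palm group (3 arrays) they had been given palmitate at 0.5 mmol/l on that carrier. Exosomes were harvested 9 h after removal of the palmitate. The methods call the recipient cells differentiated myotubes, whereas the sample labels call the cell type myoblast. All recipients were cells of this 1 line, and the labels name no deletion or transgene. The cell line field of the labels counts upward from C2C12 from sample to sample, while the source name of each sample reads C2C12. The labels call the samples biological replicates without naming separate cultures, so the p-values measure only the spread between these samples. RNA (0.1 µg per sample) was labelled with Cy3 and hybridised to 1-colour Agilent arrays.

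Glucose enters muscle cells through carriers of the GLUT family. GLUT1, encoded by Slc2a1, sits mostly in the plasma membrane and covers basal uptake, and GLUT4, encoded by Slc2a4, waits in intracellular vesicles that insulin and contraction send to the surface. A hexokinase then phosphorylates the sugar so that it cannot leave the cell, glycogen synthase (Gys1) adds glucose units to glycogen, and the muscle glycogen phosphorylase (Pygm) releases them again. Txnip binds thioredoxin and draws GLUT1 and GLUT4 from the cell surface into the cell, and its transcription follows glucose through the factors Mlxip, Mlxipl and Mlx. Slc2a4, Hk2 and Pygm are genes of differentiated muscle.

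The probes that carry the results are shown here so that the part of each transcript that was measured can be seen. For Slc2a4 (mm9, chr11:69756073-69756132, minus strand, starting at base 2477 of the transcript named in the array annotation) and Pygm (mm9, chr19:6398389-6398448, plus strand, base 2773) the last 30 of the 60 bases are given, 5′ to 3′. The capitals mark ATTAAA or AATAAA, the letters of the cleavage and polyadenylation signal, which occur in the last 30 bases of 3 of the 12 probes (Slc2a4, Slc2a8 and Pygm) on the transcript's strand. Such letters can also occur elsewhere, and the borders of exons and coding sequence were not looked up for these probes.
Slc2a4: caagggctgctgtATTAAAtgtgtatatag
Pygm: cacccactccccAATAAAtcgactcttcct

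Of the genes with 2 probes, Hk1 and Txnip each have 1 probe within the coding sequence, shown whole with the codons of the reading frame in capitals. The Hk1 probe (mm9, chr10:61732717-61732776, minus strand, base 2983) holds 20 codons and the Txnip probe (mm9, chr3:96364206-96364265, plus strand, base 1345) holds 19, with no stop codon in that frame. The other Hk1 probe starts at base 3844, which is 861 bases downstream in the transcript and 861 in the genome. The other Txnip probe starts at base 2167, which is 822 bases downstream in the transcript and 941 in the genome. The Gys1 probes start at bases 2851 and 3483, 632 bases apart on both scales.
Hk1: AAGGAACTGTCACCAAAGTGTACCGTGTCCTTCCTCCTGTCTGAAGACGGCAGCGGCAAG
Txnip: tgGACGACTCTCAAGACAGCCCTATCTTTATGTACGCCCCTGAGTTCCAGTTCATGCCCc

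The deposited value of a spot is a background-subtracted intensity. All levels below are log2 of that intensity minus log2 of the 75th percentile of the same array, so that 0 is the 75th percentile, and they are compared between arrays for the same probe only. The percentile lay between 549.4 and 1621, and the software that read the arrays called 48.5 to 70.3% of all probes per array well above background. A probe entered the limma fit when 75% or more of the arrays in either group had it well above background, which left 21589 probes, and Benjamini-Hochberg adjustment of p ran over all of them. Of these, 115 had an adjusted p under 0.05 (0.533%), and 10.0% had an unadjusted p under 0.05. The arrays stood on 4 slides, and those with arrays of both groups were slide 1 (BSA replicates 1 and 2, Palm replicate 1) and slide 3 (BSA replicate 4, Palm replicate 3). Precision is limited by how few arrays there were.

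Of the 12 probes 11, on 8 of the 9 genes, passed the filter on low signal, and none of them had an adjusted p under 0.05 in limma. At an unadjusted p under 0.05 limma gave 2 of the 11 (Slc2a4 and Pygm), and so did the methods' t-test, beside the 10.0% of all tested probes. For Slc2a4 and Pygm all EXO-Post Palm arrays lay below all EXO-Post BSA arrays. Over all tested probes the groups parted in this direction for 5.87% and in the other for 5.40%, a direction that no member showed, and the groups overlapped for the other 10 probes. The median difference of the 11 probes was 0.03 on the log2 scale, against -0.02 for all tested probes. The plot of every probe by array shows this contrast between 2 genes and the rest.

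**Figure D1:**
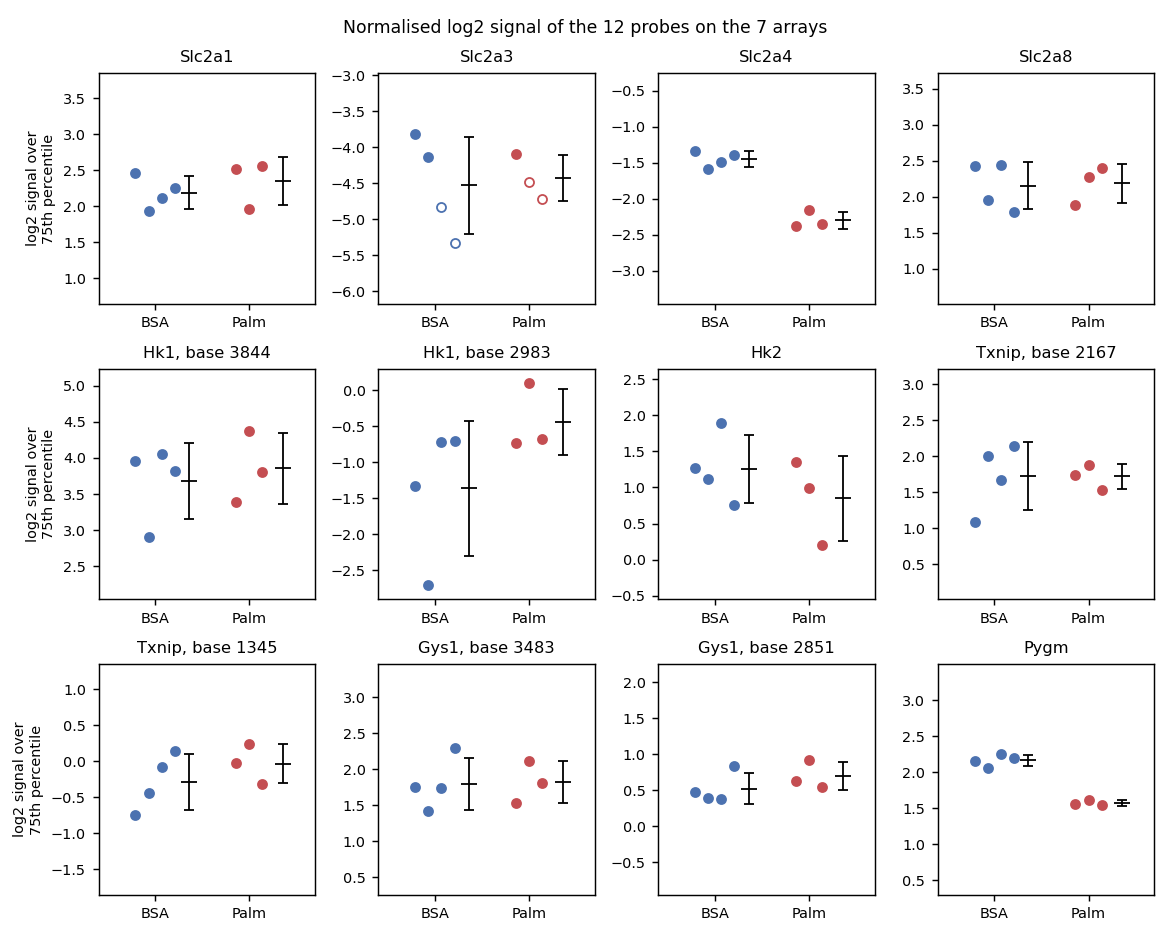
Normalised log2 signal (vertical axis, log2 over the 75th percentile of the array) of the 12 probes, with 1 panel per probe and the first base of the probe in its transcript where a gene has 2. Points are arrays in the order of their replicate numbers (blue, EXO-Post BSA, n = 4; red, EXO-Post Palm, n = 3; open where the probe was not well above background) and bars are mean ± SD; each panel spans the same 3.2 log2 units, and the groups are apart for Slc2a4 and Pygm only.

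Among the transporters, Slc2a4 stood apart between the groups. Its processed signals were 462.2, 301.3, 312.7 and 282.2 in the EXO-Post BSA arrays (here and below in the order of replicates 1 to 4) and 311.7, 147.7 and 108.5 in the EXO-Post Palm arrays (replicates 1 to 3). On the normalised log2 scale these were -1.33, -1.59, -1.49 and -1.39 with EXO-Post BSA and -2.38, -2.16 and -2.35 with EXO-Post Palm. The groups did not overlap, and the gap between the lowest EXO-Post BSA array and the highest EXO-Post Palm array was wider than the range within either group. The group means were -1.45 ± 0.11 (SD, n = 4) and -2.30 ± 0.12 (SD, n = 3). The difference was -0.85 on the log2 scale (SE 0.19, 95% interval -1.28 to -0.42), which is a ratio of 0.555 with an interval of 0.412 to 0.747. By the p of limma (0.00161, adjusted p = 0.133) it ranked 257 among the 21589 probes. Permuting the group labels in all 35 possible ways, an exact 2-sided permutation test, gave p = 0.0286, the smallest it can give. That floor is reached only by groups that do not overlap, so this p adds no evidence apart from that. Over all tested probes 5.87% parted in this direction. The adjusted p stayed above 0.05 in all 21 alternatives that adjust it, from 0.0808 to 0.636.

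The 10 spots of this probe give a view of the error within an array. Between 9 and 10 spots per array were used, and their SD on the log2 scale was 0.10 to 0.37. The median spot was -1.30, -1.62, -1.48 and -1.33 on the EXO-Post BSA arrays and -2.40, -2.03 and -2.29 on the EXO-Post Palm arrays, so the medians of the groups were apart as the means were. Single spots did overlap, since the lowest spot of EXO-Post BSA replicate 3 was -2.08 and the highest spot of EXO-Post Palm replicate 2 was -1.80. Within slide 1 the EXO-Post Palm array was lower than the mean of the EXO-Post BSA arrays by -0.92, and within slide 3 by -0.97. The difference was thus no smaller within either slide that held both groups than across all arrays.

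**Figure D2:**
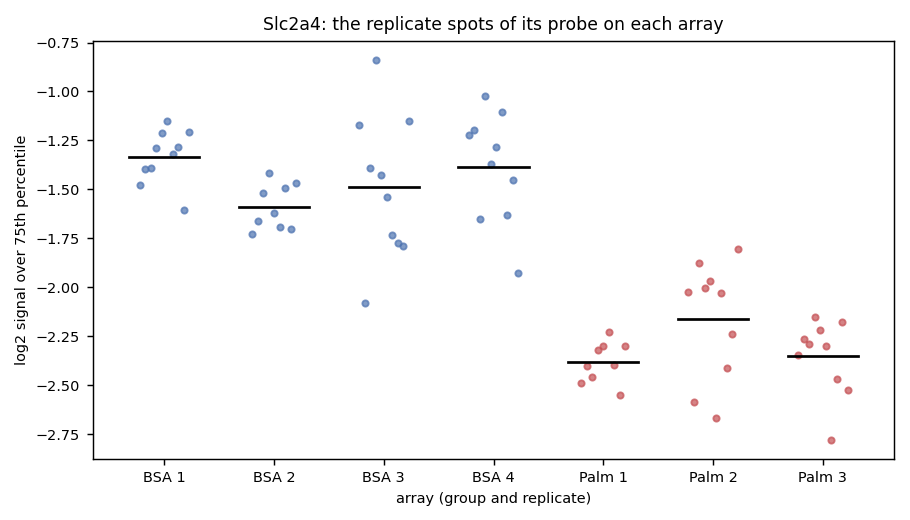
Normalised log2 signal of Slc2a4 (vertical axis) in each of the 9 or 10 spots used on each array (horizontal axis; blue, EXO-Post BSA; red, EXO-Post Palm), with the mean of the spots as a black line. The array means lie between -1.59 and -1.33 with EXO-Post BSA and between -2.38 and -2.16 with EXO-Post Palm, while single spots of EXO-Post BSA replicates 3 and 4 reach down to the range of EXO-Post Palm replicate 2.

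Slc2a1, the basal transporter, gave levels of 2.47, 1.94, 2.11 and 2.25 on the EXO-Post BSA arrays and 2.52, 1.96 and 2.56 on the EXO-Post Palm arrays. The lowest array of each group was nearly the same, and the groups overlapped. The means were 2.19 ± 0.22 (SD, n = 4) and 2.35 ± 0.33 (SD, n = 3), and the difference of 0.15 (SE 0.24, limma adjusted p = 0.862) had an interval of -0.38 to 0.69, or a ratio of 0.767 to 1.62. Leaving out each array in turn gave 0.0495 (without EXO-Post Palm replicate 3) to 0.35 (without EXO-Post Palm replicate 2), and 0.0675 and 0.0707 when replicate 1 of EXO-Post Palm and replicate 2 of EXO-Post BSA were left out. It was 0.25 without EXO-Post BSA replicate 1. Within slides 1 and 3 it was 0.32 and 0.31. The probe lies at mm9 chr4:118809864-118809923, on the plus strand.

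Slc2a8 encodes GLUT8, a carrier kept on intracellular membranes. Its levels were 2.42, 1.96, 2.44 and 1.79 with EXO-Post BSA and 1.89, 2.27 and 2.40 with EXO-Post Palm. The groups covered the same range, with a difference of 0.03 (SE 0.25, interval -0.53 to 0.60, limma adjusted p = 0.979). Within slide 1 the EXO-Post Palm array was lower by -0.30 and within slide 3 it was higher by 0.61, so the direction turned between slides. The probe lies at mm9 chr2:32828509-32828568, on the minus strand.

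Slc2a3 encodes GLUT3, the high-affinity carrier best known from neurons. Its probe (mm9 chr6:122678075-122678134, minus strand) passed the background test on 3 arrays, the 3 of slide 1 (2 of EXO-Post BSA and 1 of EXO-Post Palm), and it did not pass the filter. The processed signals were 82.3, 51.2, 29.9 and 18.1 with EXO-Post BSA and 95.4, 28.9 and 20.9 with EXO-Post Palm. The normalised values ran from -5.32 to -3.82 and from -4.71 to -4.09, and no difference was detectable at this signal (exact permutation p = 0.829, 2-sided).

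Of a chosen list of 12 other Slc2a and Slc5a carrier genes, all on the array, 7 were tested, 5 higher and 2 lower. None had an adjusted p under 0.05. The median difference was 0.10, against -0.03 for the genes of all tested probes. The lowest p values belonged to Slc5a3, the sodium-coupled carrier of myo-inositol, and Slc2a13, the proton-coupled carrier of myo-inositol. The level of Slc5a3 lay between -2.73 and -2.28 with EXO-Post BSA and between -1.84 and -1.40 with EXO-Post Palm, a difference of 0.83 without overlap (limma adjusted p = 0.204). Slc2a13 differed by -0.46 (limma adjusted p = 0.624), and its groups overlapped. Neither of these carries glucose as its main substrate.

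Hexokinases gave no difference past the spread between arrays. Hk1, the form found in most tissues, was measured at base 3844 with levels of 3.96, 2.90, 4.05 and 3.83 in EXO-Post BSA and 3.39, 4.37 and 3.80 in EXO-Post Palm. The difference was 0.17 (SE 0.35, interval -0.62 to 0.96, limma adjusted p = 0.902), with the highest and the lowest value in different groups and the rest mixed. The coding probe of Hk1 printed above gave -1.33, -2.70, -0.71 and -0.70 in EXO-Post BSA and -0.74, 0.09 and -0.68 in EXO-Post Palm. Here EXO-Post BSA replicate 2 lay far below the others, and the SD in that group was 0.94 (n = 4). The difference was 0.92 (SE 0.49, interval -0.19 to 2.03, limma adjusted p = 0.582), and it was 0.48 without EXO-Post BSA replicate 2. Replicate 2 was also the lowest array at base 3844. Over the 7 arrays the probes correlated with a Pearson r of 0.83 and a Spearman rho of 0.57, and the value at base 3844 minus that at base 2983 ranged from 4.13 to 5.60 log2 units, so the probes did not move in a fixed ratio.

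Hk2, the insulin-regulated hexokinase of muscle and fat, gave levels of 1.27, 1.12, 1.90 and 0.76 in EXO-Post BSA and 1.35, 0.99 and 0.20 in EXO-Post Palm. The lowest array was EXO-Post Palm replicate 3 and the highest EXO-Post BSA replicate 3, and the groups overlapped in between. The means were 1.26 ± 0.47 (SD, n = 4) and 0.85 ± 0.59 (SD, n = 3). The difference was -0.41 (SE 0.35, interval -1.21 to 0.39, limma adjusted p = 0.739), a ratio of 0.752 with an interval of 0.432 to 1.31. With EXO-Post Palm replicate 3 left out it was -0.09 and with EXO-Post BSA replicate 3 left out -0.20, whereas without EXO-Post Palm replicate 1 it was -0.66 and without replicate 4 of EXO-Post BSA -0.58. It was 0.16 within slide 1 and -0.56 within slide 3. The probe lies at mm9 chr6:82675056-82675115, on the minus strand. Adpgk, an enzyme that phosphorylates glucose with ADP in place of ATP, differed by -0.41 (limma adjusted p = 0.645) with groups that overlapped, and from -0.47 to -0.01 across the scalings tried.

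Txnip was well above background on all 7 arrays at both probes, and neither probe parted the groups. At base 2167 (mm9 chr3:96365147-96365206) its levels were 1.09, 2.01, 1.67 and 2.14 in EXO-Post BSA and 1.74, 1.88 and 1.54 in EXO-Post Palm. All EXO-Post Palm values fell within the range of EXO-Post BSA. The means were 1.73 ± 0.47 (SD, n = 4) and 1.72 ± 0.17 (SD, n = 3), and the difference was -0.01 (SE 0.28, limma adjusted p = 0.998). Its interval of -0.65 to 0.64 is a ratio of 0.639 to 1.55, so these arrays leave room for a change of either sign within these bounds.

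The coding probe of Txnip gave -0.74, -0.44, -0.08 and 0.14 in EXO-Post BSA and -0.02, 0.24 and -0.31 in EXO-Post Palm. The difference was 0.25 (SE 0.27, interval -0.36 to 0.86, limma adjusted p = 0.792), and the groups overlapped. It was 0.0966 without EXO-Post BSA replicate 1 and 0.12 without EXO-Post Palm replicate 2, and 0.39 when either replicate 4 of EXO-Post BSA or replicate 3 of EXO-Post Palm was left out. In both probes EXO-Post BSA replicate 1 was the lowest array of its group. Over the 7 arrays the probes correlated with a Pearson r of 0.70 and a Spearman rho of 0.57. Both were higher with EXO-Post Palm within slide 1 (by 0.20 and 0.57) and lower within slide 3 (by -0.60 and -0.45), so neither probe kept a direction across slides. Of the genes near Txnip in function (other arrestin-domain proteins, thioredoxins with their reductases, and the glucose-responsive factors) 10 of 13 were tested, 6 were higher and 4 lower, and none had an adjusted p under 0.05. The lowest p values belonged to Mlxip, a glucose-sensing transcription factor, at -0.47 (limma adjusted p = 0.496) and Ddit4, a stress-induced inhibitor of mTORC1, at 0.62 (limma adjusted p = 0.502).

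Pygm, the muscle phosphorylase that breaks down glycogen, was the other gene whose groups were apart. Its processed signals were 5151, 3777, 4060 and 3325 in EXO-Post BSA and 4785, 1992 and 1604 in EXO-Post Palm. The normalised levels were 2.15, 2.06, 2.25 and 2.20 in EXO-Post BSA and 1.56, 1.62 and 1.55 in EXO-Post Palm. The means were 2.17 ± 0.08 (SD, n = 4) and 1.58 ± 0.04 (SD, n = 3), and these SDs were the lowest of the 12 probes in each group. The difference was -0.59 (SE 0.18), a ratio of 0.664 with an interval of 0.500 to 0.882. By limma it ranked 722 of 21589 (p = 0.00999, adjusted p = 0.298), and the exact permutation p was 0.0286, again the smallest possible. The SE of limma is larger than the arrays of this probe alone would give, because limma draws the variance of each probe toward that of all probes. With the methods' t-test, which does not do so, the adjusted p was 0.149, the lowest over the 21 alternatives that adjust it, and the highest was 0.964. Within slides 1 and 3 the difference was -0.55 and -0.65, close to that over all arrays.

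**Figure D3:**
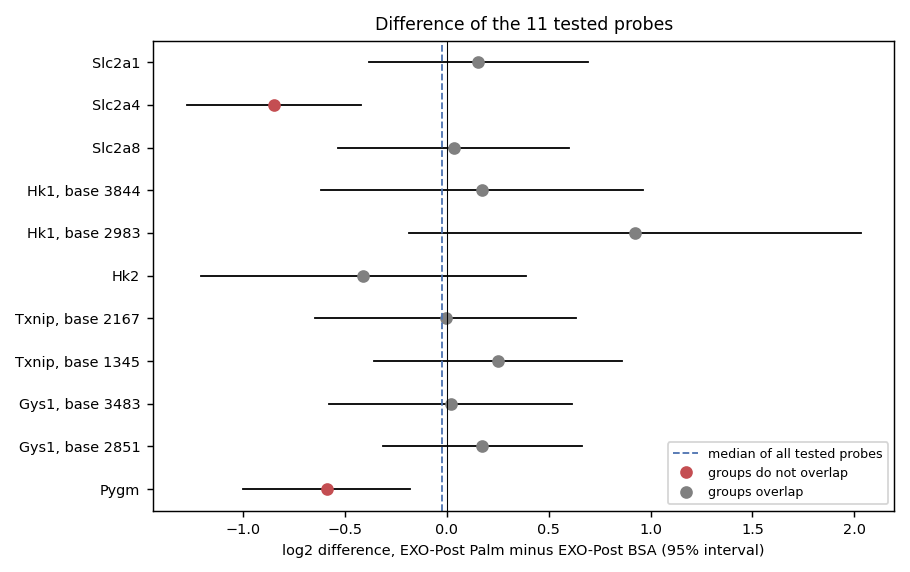
Log2 difference of the 11 tested probes, EXO-Post Palm minus EXO-Post BSA (horizontal axis; points, limma estimate; lines, 95% interval, not adjusted for the number of probes). Slc2a4 (-0.85) and Pygm (-0.59) are in red because their groups do not overlap, the intervals of the other 9 probes include 0, and the dashed line is the median of all tested probes (-0.02).

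Gys1, the muscle glycogen synthase that acts opposite to Pygm, showed no difference past the spread between arrays at either probe. At base 3483 (mm9 chr7:52711790-52711849) its levels were 1.75, 1.42, 1.73 and 2.29 in EXO-Post BSA and 1.53, 2.12 and 1.81 in EXO-Post Palm, with a difference of 0.02 (SE 0.26, interval -0.58 to 0.62, limma adjusted p = 0.989). At base 2851 (mm9 chr7:52711158-52711217) they were 0.47, 0.39, 0.38 and 0.84 in EXO-Post BSA and 0.62, 0.92 and 0.54 in EXO-Post Palm, with a difference of 0.17 (SE 0.21, interval -0.31 to 0.66, limma adjusted p = 0.824). The latter ran from 0.0623 without EXO-Post Palm replicate 2 to 0.28 without EXO-Post BSA replicate 4. EXO-Post BSA replicate 4 and EXO-Post Palm replicate 2 were the highest of their groups at both probes. The probes correlated over the 7 arrays with a Pearson r of 0.80 and a Spearman rho of 0.68.

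The other genes of glycogen metabolism were lower with EXO-Post Palm for the most part, without a gene past the threshold. Of 28 on the array 22 were tested, 18 were lower and 4 higher, beside 52.7% of all tested probes that were lower. None had an adjusted p under 0.05, and 3 had an unadjusted p under 0.05 in limma (2 lower and 1 higher), beside the 10.0% of all tested probes. Their median difference was -0.25, against -0.03 for all tested genes, and 17 to 18 of them were lower across the scalings tried. The lowest p values belonged to Ppp1r3c, a glycogen-targeting subunit of protein phosphatase 1, and Gsk3a, a kinase that inhibits glycogen synthase. The level of Ppp1r3c lay between -3.10 and -2.36 in EXO-Post BSA and between -1.90 and -1.58 in EXO-Post Palm, a difference of 0.84 in the direction opposite to Pygm (limma adjusted p = 0.246). Gsk3a lay between 2.82 and 3.34 in EXO-Post BSA and between 2.47 and 2.60 in EXO-Post Palm, a difference of -0.48 (limma adjusted p = 0.485). Pgm2, a phosphoglucomutase named here after its values were seen, had a fitted difference of -3.64 (limma adjusted p = 0.626) that came from 1 array. Its level was -6.47 on EXO-Post Palm replicate 3 and between 3.75 and 4.57 on the other 6 arrays.

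Around Slc2a4 the arrays also measured the vesicles that carry GLUT4 and the factors known to act on its gene. Of the genes of vesicle traffic 17 of 18 on the array were tested, 7 higher and 10 lower, with a median of -0.07 and none at an adjusted p under 0.05. This list had no fixed direction, since 10 were higher and 7 lower after normexp and quantile normalisation and 9 higher and 8 lower in the authors' processed values. Snap23, a SNARE protein through which GLUT4 vesicles fuse with the plasma membrane, came closest. Its level lay between 2.30 and 2.91 in EXO-Post BSA and between 1.17 and 1.73 in EXO-Post Palm, without overlap, and the difference was -1.23 (limma adjusted p = 0.0841). The adjusted p of Snap23 was 0.0405 after normexp background correction with the 75th percentile, 0.0397 with only probes well above background on all arrays, and 0.0312 with a trended and robust variance, so whether it passed depended on these settings. Sort1, which sorts cargo into the vesicles, differed by -0.64 (limma adjusted p = 0.464) with groups that did not overlap.

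Among genes of Slc2a4 transcription 18 of 21 on the array were tested, 8 higher and 10 lower (9 to 13 lower across the scalings), with a median of -0.01 and none at an adjusted p under 0.05. Cebpa, a factor best known from fat cells, lay between -2.03 and -1.56 in EXO-Post BSA and between -1.05 and 0.22 in EXO-Post Palm, a difference of 1.28 (limma adjusted p = 0.188). Ppargc1a, a coactivator of mitochondrial and GLUT4 genes, lay between -3.69 and -3.32 in EXO-Post BSA and between -4.29 and -4.08 in EXO-Post Palm, a difference of -0.66 (limma adjusted p = 0.278), and 2 of the 3 EXO-Post Palm arrays had it well above background. Mef2a, Mef2c and Mef2d, MEF2 factors that bind the Slc2a4 promoter and are named here after their values were seen, differed by 0.26, -0.00020 and 0.0032 (limma adjusted p = 0.745, 1.00 and 0.998). Genes induced by hypoxia split evenly with 7 higher and 7 lower of 14 tested (5 to 8 lower across the scalings), a median of 0.02 and none at an adjusted p under 0.05. Adm, encoding the peptide adrenomedullin, differed by 1.26 (limma adjusted p = 0.121) and P4ha1, a collagen prolyl hydroxylase, by -0.64 (limma adjusted p = 0.424). Of the 89 tested genes in the 7 pathway lists none had an adjusted p under 0.05, and 14 (15.7%) had an unadjusted p under 0.05 in limma, beside 10.0% of all tested probes, or 13 with the methods' t-test.

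**Figure D4:**
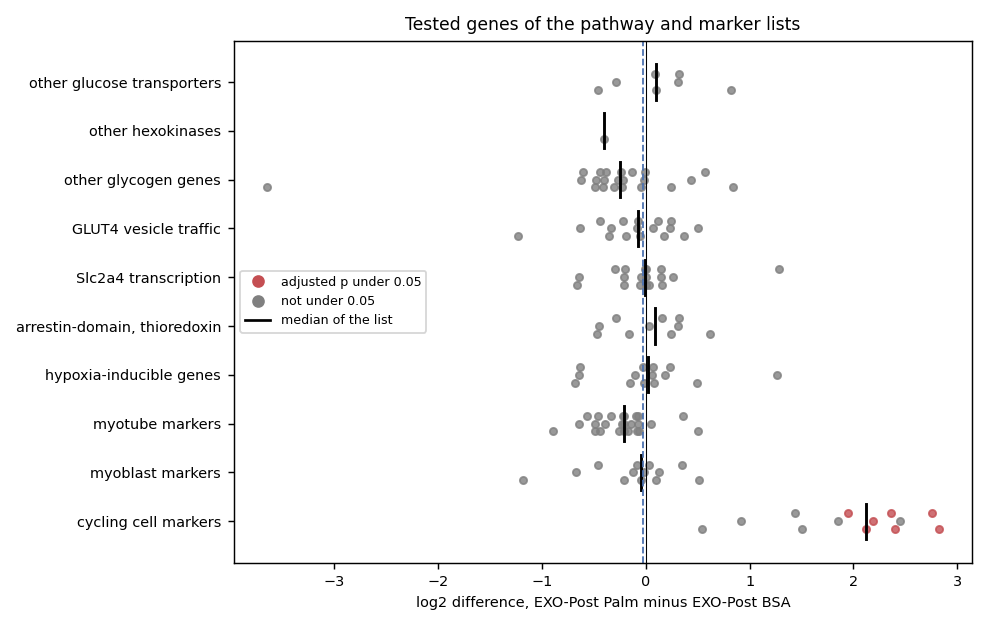
Log2 difference, EXO-Post Palm minus EXO-Post BSA (horizontal axis), of each tested gene in the 7 pathway lists and 3 marker lists, with the median of the list as a black bar and the median of all tested probes as a dashed line. Red points, 7 in all, have an adjusted p under 0.05 and lie in the list of cycling cell markers; the glycogen gene at -3.64 is Pgm2.

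Markers of cell state parted the groups as well. All 13 tested markers of cycling cells, out of 15 on the array, had a higher mean with EXO-Post Palm, 7 of them at an adjusted p under 0.05 (beside 0.533% of all tested probes), with a median difference of 2.12. Each tested marker kept this direction in all 21 alternatives that adjust p, with a median of 1.77 to 2.37, but the calls did not hold in all of them. None was called without a filter, with the replicate block, with the methods' t-test after adjustment or without EXO-Post Palm replicate 1. Without replicate 3 of EXO-Post Palm 1 was called, and with 1 EXO-Post BSA array left out 3 to 4 were. Their mean level per array was -1.37 to -1.23 with EXO-Post BSA and 0.23 to 1.18 with EXO-Post Palm. Of 25 myotube markers 22 were lower and none had an adjusted p under 0.05, with a median of -0.21 and 18 to 23 lower across the scalings. Their mean level was 4.93 to 5.02 with EXO-Post BSA and 4.55 to 4.88 with EXO-Post Palm, without overlap. Among the EXO-Post Palm arrays, replicate 2 had the highest Slc2a4, the highest Pygm, the highest mean of myotube markers and the lowest mean of cycling cell markers. Within EXO-Post BSA only part of this held. Replicate 1 had the highest Slc2a4, the highest myotube mean and the lowest cycling mean. The highest Pygm was on EXO-Post BSA replicate 3, which had the lowest myotube mean of that group. Some single myotube markers had differences near those of Slc2a4 (-0.85) and Pygm (-0.59), namely Chrna1 by -0.89, Myh8 by -0.65 and Myl1 by -0.57, with limma adjusted p of 0.431, 0.304 and 0.618. Others did not, such as Myog at -0.07 and Acta1 at -0.08. Among the lower markers the groups did not overlap for Myh8, Myh7, Myh3 and Myh2, beside 5.87% of all tested probes in that direction. They overlapped for Chrna1 and Myl1. The 3 higher ones were Des by 0.50, without overlap of the groups, Ckm by 0.35 and Myh1 by 0.05 (limma adjusted p = 0.446, 0.761 and 0.976). In bulk RNA fewer cells of a type and less RNA per cell cannot be told apart, and the part of cell state in the values of Slc2a4 and Pygm was not tested.

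**Figure D5:**
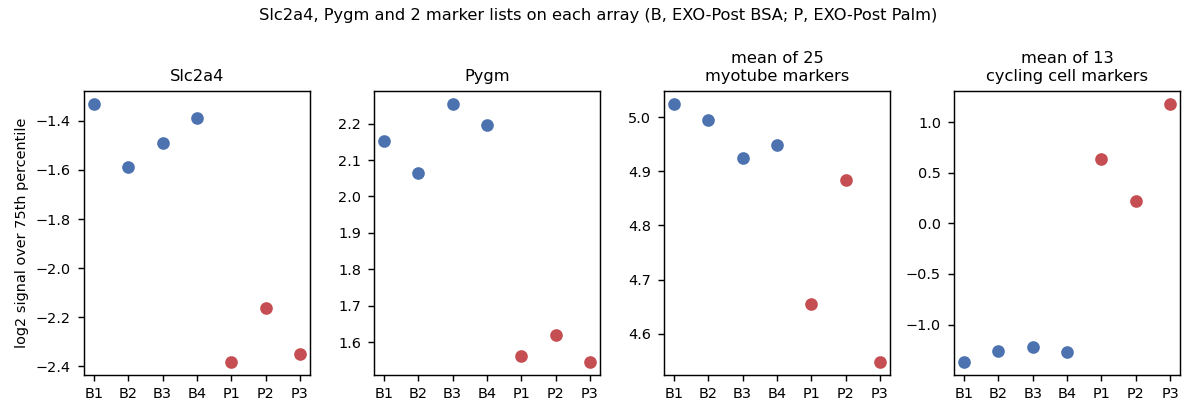
Normalised log2 signal on each array (horizontal axis; B, EXO-Post BSA; P, EXO-Post Palm) of Slc2a4, of Pygm, and of the mean of 25 myotube markers and of 13 cycling cell markers, each panel with its own vertical scale. In every panel the groups are apart, with EXO-Post Palm lower in the first 3 panels and higher in the last.

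The labelled cell type was checked with the marker lists. All 25 myotube markers were tested, and 13 of 15 markers of undifferentiated myoblasts, of which 5 were higher and 8 lower (6 to 9 lower across the scalings). Of 26 markers of other cells on the array 13 passed the filter (2 of 8 for adipocytes, 5 of 7 for fibroblasts and osteoblasts, 3 of 6 for macrophages and 3 of 5 for endothelium), and none of these had an adjusted p under 0.05. Well above background on all 7 arrays were 10 of the 26. They were Pparg (adipocytes), Dcn, Lum and Pdgfra (fibroblasts), Runx2 (osteoblasts), Itgam and Csf1r (macrophages), and Kdr, Pecam1 and Vwf (endothelium). Of all 39429 probes on the array 17717 were well above background on all arrays and 21589 passed the filter, so neither marker count was a larger share than that of all probes. Cfd (adipocytes), Sp7 (osteoblasts), Lyz2 (macrophages), and Cdh5 and Tek (endothelium) did not pass the background test on any array. The groups did not overlap for 2 of the 13, beside 5.87% of all tested probes with EXO-Post Palm lower and 5.40% with it higher. Lum, a proteoglycan of the matrix, differed by 1.45 (limma adjusted p = 0.105) and Itgam, an integrin of myeloid cells, by -1.63 (limma adjusted p = 0.111). The other 2 tested macrophage markers, Csf1r and Adgre1, were higher, by 0.45 and 0.58 (limma adjusted p = 0.613 and 0.689), so that list had no common direction. The part of other cells in the values of Slc2a4 and Pygm was not tested.

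The genes whose levels followed Slc2a4 most closely over the 7 arrays, among 17476 gene names, were Filip1 (Pearson r = 0.985), which encodes a protein that binds filamin A, Lpin3 (r = 0.983), a phosphatidate phosphatase of lipid synthesis, and the predicted gene Gm2045 (r = 0.982). All 3 also had every EXO-Post Palm array below every EXO-Post BSA array, at differences of -0.78, -0.49 and -0.62, so these correlations rest largely on the gap between the groups. The level of Filip1, for example, was 1.28, 1.05, 1.06 and 1.39 in EXO-Post BSA and 0.31, 0.52 and 0.44 in EXO-Post Palm. For Txnip at base 2167 the closest were Ddx6 (r = 0.977), an RNA helicase of mRNA decay, a transcript known only by an Ensembl identifier (r = 0.968), and Phf20l1 (r = 0.965), a reader of methylated lysine. Ddx6 was 1.00, 1.43, 1.34 and 1.51 in EXO-Post BSA and 1.40, 1.43 and 1.25 in EXO-Post Palm, with the groups overlapping as for Txnip. For both Slc2a4 and Txnip these are the highest of 17476 correlations over only 7 arrays. Such a ranking can give a high r to unrelated genes, and no p was computed.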

How the data were processed

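RNA of C2C12 cells given EXO-Post BSA (n = 4) or EXO-Post Palm (n = 3) was measured on 1-colour Agilent arrays of 44397 spots. The authors deposited, per array, the intensity written by the scanner software, with the background subtracted and no normalisation between arrays. Per the file headers the software was version 10.7.3.1 for 6 arrays and 11.5.1.1 for EXO-Post BSA replicate 3, while the submitters' processing notes name 9.1 and limma. The authors also deposited a table of log2 values that was quantile normalised, used here as an alternative, with rows joined to spots by order (rank correlation with the median intensity of 0.994 to 0.999 per array). The study's methods name Agi4x44PreProcess and limma without settings, and the methods' t-test is named for the study's data in general.

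Levels were computed as log2 of the processed intensity over its 75th percentile among 43020 non-control spots per array. Spots marked as uneven or as outliers were left out, no spot was saturated, and spots of a probe were averaged. Probes were kept by the rule given in the text. Groups were tested in R 4.3.3 by limma 3.58.1 (jsonlite 2.0.0 and version 1.17.8 of data.table read the files; no covariate, prior degrees of freedom 3.67, threshold of 0.05), and members also by an exact permutation test over arrays. Gene names are those of the array, with synonyms of a single gene updated by a RefSeq table of the mouse genome, and a gene of a list is given by its brightest tested probe. The members and gene lists were chosen with earlier results of these data known. A gene of the lists is not reported here. The text names every member, from each pathway list the genes past the threshold or otherwise the 2 with the lowest p, and the 3 genes most like Slc2a4 and Txnip; Pgm2, the MEF2 factors and single markers were named after their values were seen. Alternatives covered background correction (normexp with an offset of 50 on the median intensity, since the mean is not in every file used), scaling, filter, slide, replicate number, array weights, variance model, test and each array left out. On simulated data with 200 of 21137 probes changed, limma recovered 67 of the 100 with a log2 change of 2 and 11 of the 100 with a log2 change of 1. It also called 5 that were not changed. The simulated noise was normal and independent between probes and arrays, without a slide effect, so these counts need not hold for the real arrays. No sequence of the Slc2a4 promoter was used here.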

Additional observations from a re-analysis of the deposited data

How the results depend on the processing

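Slc2a4 and Pygm were lower with EXO-Post Palm in all 23 alternatives (-0.94 to -0.60 and -0.65 to -0.54 on the log2 scale), and no member had an adjusted p under 0.05 in any of them. Without adjustment of p, 2 member probes passed by limma and 2 by the methods' t-test, and 14 and 13 of 89 pathway genes, beside 10.0% of all tested probes in limma. With normexp and the 75th percentile, with probes well above background on all arrays, and with a trended and robust variance, 1 pathway gene passed each time (Snap23).

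Over all probes 115 passed (100 higher, 15 lower), 181 with slide as a random block, 173 with a trended and robust variance, 2108 by the unadjusted t-test and 2169 by unadjusted limma. None passed without a filter, with the replicate block or by the adjusted t-test, where 1900, 1933 and 2108 had an unadjusted p under 0.05. Leaving out each array in turn gave 4 to 228, with 7, 228 and 4 for EXO-Post Palm replicates 1, 2 and 3 and 61 to 69 for an EXO-Post BSA array. The split was 97 higher to 31 lower after normexp and quantile normalisation and 120 to 42 after normexp and the 75th percentile. The deviations of same-numbered arrays from their group means correlated at r = 0.12, -0.15 and -0.15. Only the first of these pairs shared a slide, and so few pairs cannot settle whether the numbers pair the samples. The replicate block gave -0.83 for Slc2a4 and -0.58 for Pygm.

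Members near 0 changed sign. Slc2a8 gave -0.23 with normexp and quantile normalisation, -0.33 with normexp and the 75th percentile, -0.0273 with median centring, -0.26 in the authors' processed values, -0.0887 with the replicate block and -0.0012 with array weights. Slc2a1 gave -0.051 and Hk1 at base 3844 gave -0.0304 with normexp and the 75th percentile. Txnip at base 2167 gave 0.0418 with quantile normalisation and 0.13 with the replicate block. Gys1 at base 3483 gave -0.0402 with median centring, and with slide as a fixed block -0.24, beside -0.0184 for Gys1 at base 2851 and -0.0329 for Hk1 at base 3844, and -0.0398 with slide as a random block. Leaving out each array gave -0.0887 to 0.18 for Slc2a8, -0.089 to 0.40 for Hk1 at base 3844, -0.22 to 0.13 for Txnip at base 2167 and -0.13 to 0.18 for Gys1 at base 3483. The cause was not tested.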
